A study of Mus musculus with 6 samples.

Results

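Glycolysis and the pentose phosphate pathway were followed in cortical CD11b+ cells through 33 genes, chosen by name as members of these pathways, among the 16516 genes of the deposited table. The list holds the transporter Slc2a3, the enzymes from hexokinase to pyruvate kinase, the genes of lactate formation and export and of pyruvate entry into mitochondria, and the enzymes of the pentose phosphate branch. Transcripts were sequenced from 3 samples of NS mice and 3 of 4LPS mice, all male C57BL6/J mice aged 8 to 10 weeks. NS mice received normal saline and 4LPS mice received LPS at 500 µg/kg body weight, in both groups by intraperitoneal injection on 4 consecutive days. Cortices were taken at D7, that is 7 days after the first injection, the CD11b+ cells were isolated with magnetic beads, and each sample held the pooled cells of 2 mice. The comparison of 4LPS with NS asks which transcripts differ in these cells after severe peripheral inflammation.

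Glycolysis splits glucose into pyruvate in the cytosol and yields ATP and NADH. Its flow is set mainly at hexokinase, at phosphofructokinase 1 and at pyruvate kinase, and phosphofructokinase 1 is driven by fructose 2,6-bisphosphate, which the PFKFB enzymes make and break down. The pentose phosphate pathway branches off at glucose 6-phosphate and supplies NADPH and ribose 5-phosphate. Microglia, the resident macrophages of the brain, take up fructose and glucose, and myeloid cells exposed to LPS are known to raise glycolysis.

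Levels are given in CPM, TMM-scaled counts per 1e+06 counts of a library, when 1 gene is compared between samples. When genes are compared with each other, the deposited FPKM is used, which is scaled for gene length but carries no TMM factor. The direction between groups can therefore differ between CPM and FPKM, as it did for the means of Eno1, Ldhb, Pdk1 and G6pdx. Library totals were 15158342 to 15746606 counts in NS and 15164123 to 15462396 in 4LPS. The 12 microglial markers examined summed to 48990 to 51850 CPM in NS and 48540 to 49120 CPM in 4LPS (ratio of means 0.972). This likeness holds for the sum in CPM and not for each marker. All 3 4LPS samples lay above all 3 NS samples for 4 of the 12 and below them for 7 (19.9% and 17.5% of all genes tested). Of the 12, 1 was called higher and 1 lower. In FPKM the sums did not overlap, with 22180 to 23400 in NS and 20460 to 20670 in 4LPS. Other cells were also measured, and their levels moved with the groups or within them. NK cell markers summed to 8.43 to 13.2 CPM in NS and 106 to 120.3 CPM in 4LPS, with 9 of 10 called higher, and astrocyte markers to 274 to 286 CPM in NS and 203 to 234 CPM in 4LPS, with 3 of 7 called lower. Endothelial markers summed to 323 to 656 CPM in NS and 165 to 355 CPM in 4LPS (ratio of means 0.524), with 2 of 7 called lower, and T cell markers to 5.16 to 6.63 CPM in NS and 15.2 to 18.95 CPM in 4LPS (ratio of means 2.96), with 3 of the 4 tested called higher. Choroid plexus markers, led by Ttr, summed to 6582, 5717 and 654 CPM in NS replicates 1, 2 and 3 and to 2218, 1.97 and 532 CPM in 4LPS replicates 1, 2 and 3, which sets NS replicate 3 apart from its group and 4LPS replicate 2 apart from all. In such bulk samples, fewer cells of a type and less RNA per cell cannot be told apart.

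All 33 genes passed the filter on low counts, and 12 were called higher and 2 lower in 4LPS at an adjusted p under 0.05 by edgeR, while 19 did not pass. The higher genes were Hk2, Hk3, Gpi1, Pfkl, Pfkfb3, Pfkfb4, Tpi1, Pgam1, Pkm, Ldha, Slc16a3 and Pgd, and the lower ones were Hk1 and Pfkm. Called genes thus made up 42.4% of the list, against 16.4% of the 13151 genes tested. In the higher direction the share was 36.4% against 9.95% of all genes, and in the lower direction 6.06% against 6.43%. All 3 4LPS samples lay above all 3 NS samples for 12 of the 33 genes (19.9% of all genes did so) and below them for 3, which were Hk1, Pfkm and Bpgm (17.5% of all genes). The changes were small. The median log2 fold change of the list was 0.17 beside −0.016 for all genes tested, 26 of the 33 values lay above 0 (of which those of Eno1, Ldhb, Pdk1 and G6pdx lay below 0 without the composition factor), none lay beyond 1 in either direction, and 12 of the 14 called genes changed by less than 1.5-fold.

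**Figure D1:**
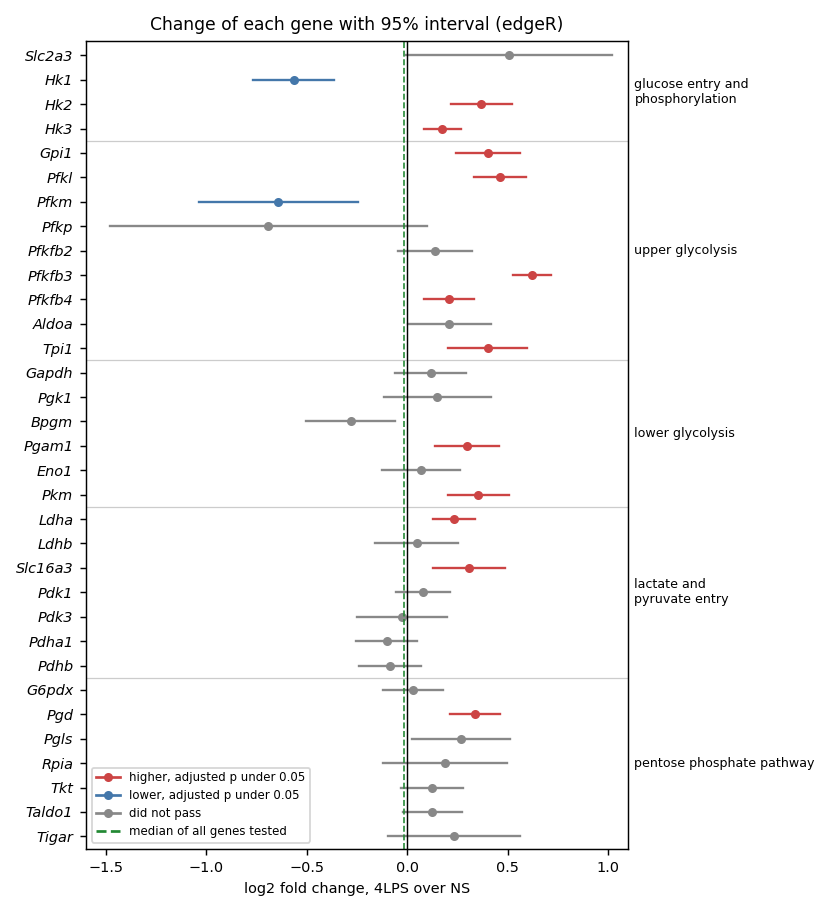
Log2 fold change of 4LPS over NS for each of the 33 genes, grouped by role, with the 95% interval from edgeR as a line. Red and blue mark genes called higher (12) and lower (2), grey marks the 19 that did not pass, and the dashed line is the median of all genes tested (−0.016). Most points lie right of 0 and the widest interval is that of Pfkp.

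How many genes passed depended on the scaling between libraries and on single samples. Without the composition factor, 6 of the 33 were called higher and 3 lower. Over all genes that setting turned 1308 higher and 845 lower calls into 906 higher and 1711 lower, and moved the median of all genes from −0.016 to −0.11 and that of the list from 0.17 to 0.077. Leaving out 4LPS replicate 1 or 4LPS replicate 3 left 6 genes called higher, and the call of 1 of the 2 lower genes, Pfkm, was lost without any one sample other than NS replicate 3. Without NS replicate 3, 13 genes were called higher and 3 lower. Hk1, Hk2, Gpi1, Pfkl, Pfkfb3 and Pgd, 6 of the 14 called genes, passed in all 20 alternatives. For single genes, lost calls are listed below mainly for left-out samples, and each of those calls was also lost in some other alternative. Ldha, for example, was also lost without the composition factor (adjusted p = 0.0699 in edgeR).

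Many glycolytic genes are known targets of the hypoxia-inducible (HIF) factors, and the promoter windows of the 33 genes were searched for ACGTG and GCGTG on both strands, the core letters of the element that the HIF factors recognise. The windows are those of RefSeq in GRCm38.p6, from 250 bases before to 50 bases after a gene's start, 300 bases each. Windows were found for 32 of the 33 genes, all but Slc2a3, and 37 of their 47 windows (78.7%) held a match, beside 60.2% of the 13538 windows of all genes tested and 43.8% of the 32851 windows of all genes. The letters ACGTG alone stood in 42.6% of the list's windows and in 24.7% of those of all genes tested. CACGTG, which contains ACGTG on both strands and is bound by MYC and by the glucose-sensing factors, stood in 8.51% and 9.59%. A match stood in at least 1 window of 10 of the 12 higher genes, of both lower genes and of 16 of the 18 other genes. By gene, 87.5% of the 32 had a match, beside 66.2% of the 10567 genes tested with a window. For ACGTG alone these shares were 50% and 28.8%. Some windows of the same gene overlap, as for Eno1, Aldoa and Pfkm, so the shares of windows can count a site more than once. These shares are a description, and the base composition of the windows was not matched. The windows printed are those of the gene with the smallest adjusted p (Pfkfb3), of the hexokinases that moved in opposite directions (Hk2 and Hk1) and of the gene with the most matches in a window (Ldha), from 5′ to 3′ on the strand of the gene, with the matched letters in capitals. CACGT and CACGC are matches read on the other strand, and CACGTG counts on both strands.
Pfkfb3 chr2:11502041-11502340 (minus strand): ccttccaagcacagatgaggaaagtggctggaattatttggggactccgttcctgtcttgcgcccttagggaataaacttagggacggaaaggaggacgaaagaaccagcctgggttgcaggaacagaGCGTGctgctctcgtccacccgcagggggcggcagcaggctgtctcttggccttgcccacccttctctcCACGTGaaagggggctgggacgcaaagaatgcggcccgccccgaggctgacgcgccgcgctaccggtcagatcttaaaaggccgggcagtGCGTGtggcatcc
Hk2 chr6:82774405-82774704 (minus strand): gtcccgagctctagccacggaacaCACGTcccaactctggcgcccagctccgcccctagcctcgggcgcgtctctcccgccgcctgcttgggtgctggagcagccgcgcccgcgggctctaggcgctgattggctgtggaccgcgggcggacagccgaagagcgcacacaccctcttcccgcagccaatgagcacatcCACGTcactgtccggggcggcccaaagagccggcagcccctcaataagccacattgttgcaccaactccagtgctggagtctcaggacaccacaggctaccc
Hk1 chr10:62340372-62340671 (minus strand): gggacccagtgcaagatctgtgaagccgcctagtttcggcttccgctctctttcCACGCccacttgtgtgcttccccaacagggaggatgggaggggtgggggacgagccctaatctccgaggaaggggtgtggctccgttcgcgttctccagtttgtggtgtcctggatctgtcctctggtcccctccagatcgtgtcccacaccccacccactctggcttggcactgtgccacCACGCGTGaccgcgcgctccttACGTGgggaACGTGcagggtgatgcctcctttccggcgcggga
Ldha chr7:46845554-46845853 (plus strand): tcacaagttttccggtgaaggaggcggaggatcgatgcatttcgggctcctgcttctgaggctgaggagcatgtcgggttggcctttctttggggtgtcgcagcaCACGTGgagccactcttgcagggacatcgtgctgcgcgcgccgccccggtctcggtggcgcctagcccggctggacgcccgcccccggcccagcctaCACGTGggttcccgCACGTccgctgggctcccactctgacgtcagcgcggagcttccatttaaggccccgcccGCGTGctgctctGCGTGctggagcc
The Pfkfb3 window shown held 4 matches and the gene's other window 1. The Hk2 window held 2, the Hk1 window 5 and the Ldha window 7. The other Hk1 window, at another start, held 0. A match of so few letters marks no bound site, and binding was not measured here.

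Of the genes that bring glucose into the pathway, Slc2a3 encodes the high-affinity glucose transporter GLUT3, and hexokinases phosphorylate glucose and so trap it in the cell. Hk2, the inducible hexokinase that can bind to mitochondria, lies at chr6:82699740-82751469 in GRCm39 and measured 339, 381 and 352 CPM in NS and 457, 494 and 433 CPM in 4LPS, in the order of replicates 1, 2 and 3 here and in the values that follow. Every 4LPS sample lay above every NS sample, and Hk2 rose 1.29-fold in edgeR (log2 fold change 0.37, SE 0.066, adjusted p = 0.00934). Hk1, the hexokinase of most resting tissues, with 5 matches in its printed window, lies at chr10:62104621-62215687 and measured 81.6, 81.04 and 66.5 CPM in NS and 53.3, 49.7 and 51.7 CPM in 4LPS. The groups did not overlap in the opposite direction to Hk2, and Hk1 fell (log2 fold change −0.57, SE 0.086, adjusted p = 0.00459), with NS replicate 3 the NS sample nearest to 4LPS. Hk1 is also abundant in neurons and astrocytes, and neuron markers summed to 10.7 to 12.02 CPM in NS and 7.89 to 9.58 CPM in 4LPS, in the same direction as the astrocyte markers. The part of these cells in the value of Hk1 was not tested. Hk3, a hexokinase of myeloid cells, measured 174, 175 and 172 CPM in NS and 198, 197 and 193 CPM in 4LPS, with little spread within either group. Hk3 rose by a small amount (log2 fold change 0.17, SE 0.039, adjusted p = 0.0231), and edgeR lost the call, with the adjusted p in parentheses, without NS replicate 1 (0.0654), without 4LPS replicate 1 (0.0793), without 4LPS replicate 2 (0.0809) or without 4LPS replicate 3 (0.0514). Slc2a3 measured 10.7, 10.9 and 15.8 CPM in NS and 23.1, 14.1 and 15.9 CPM in 4LPS, so that the groups overlapped, and did not pass (log2 fold change 0.50, SE 0.22, adjusted p = 0.155, 95% interval −0.0090 to 1.02). It passed only without NS replicate 3 (0.0487). Slc2a3 had 3.51 ± 0.782 FPKM in NS and 4.67 ± 1.29 FPKM in 4LPS (mean ± SD, n = 3). Slc2a1, a glucose transporter gene outside the list, stood far higher, with 68.5 ± 14.1 FPKM in NS and 54.2 ± 10.2 FPKM in 4LPS. Slc2a1 did not pass (log2 fold change −0.24, adjusted p = 0.361 in edgeR). The highest Slc2a3 value of each group stood in the sample with the most neutrophil marker RNA, which summed to 935, 902 and 1435 CPM in NS and 1989, 1348 and 1673 CPM in 4LPS, and the part of these cells in the values of Slc2a3 and Hk3 was not tested.

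**Figure D2:**
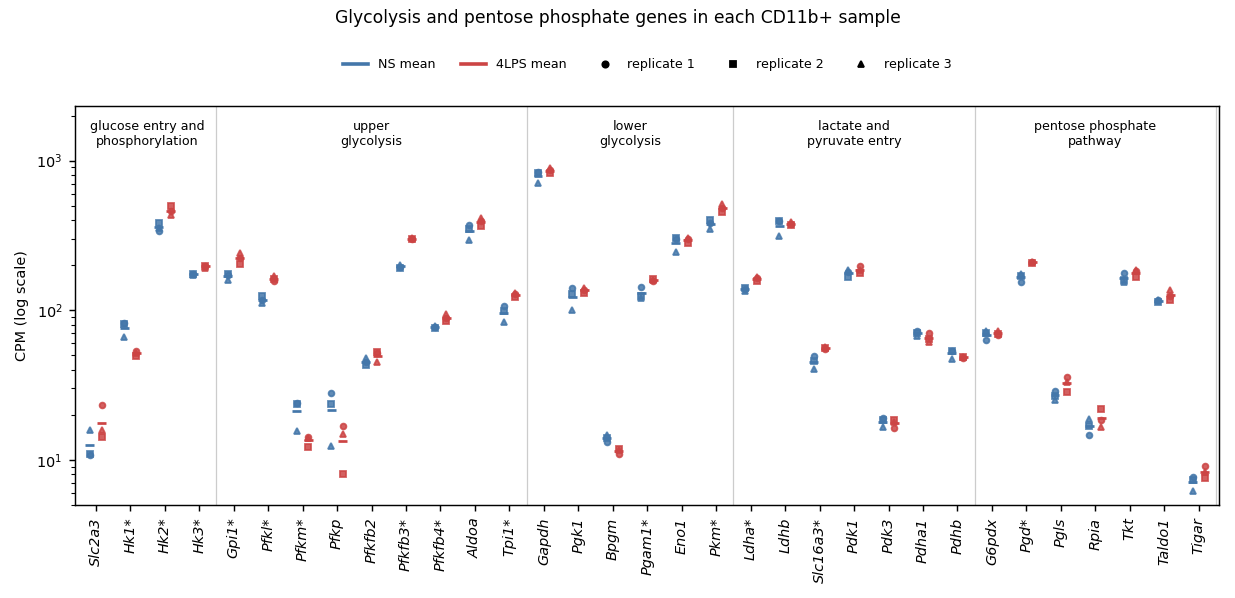
Level of the 33 genes in each of the 6 samples, in CPM on a log axis, with a short line at each group mean and a symbol for each replicate. An asterisk marks the 14 called genes. Hk2 and Pfkfb3 stand higher in all 3 4LPS samples while Hk1 and Pfkm stand lower, and Gapdh has the highest CPM in both groups.

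Upper glycolysis runs from glucose 6-phosphate to the triose phosphates, and 5 of its 9 genes (55.6%, against 9.95% of all genes) were called higher and 1 lower. Pfkfb3, which makes most of the fructose 2,6-bisphosphate in proliferating and activated cells, lies at chr2:11476244-11558888 and had the smallest adjusted p of the list and 4 matches in the promoter window printed. It measured 196, 191 and 202 CPM in NS and 301, 300.2 and 303 CPM in 4LPS. The 3 4LPS samples were nearly equal and far above NS, and Pfkfb3 rose 1.54-fold (log2 fold change 0.62, SE 0.041, adjusted p = 7.30e-05 in edgeR). Its paralog Pfkfb4 measured 77.8, 76.3 and 78.2 CPM in NS and 88.8, 85.2 and 94.1 CPM in 4LPS, also with no overlap. Pfkfb4 rose less (log2 fold change 0.21, SE 0.054, adjusted p = 0.0376), and the call was lost without NS replicate 1 (0.0989), without NS replicate 2 (0.0942), without 4LPS replicate 1 (0.0862) or without 4LPS replicate 3 (0.0935). Pfkfb2, a further paralog known from heart, measured 44.8, 42.8 and 47.9 CPM in NS and 51.5, 52.7 and 44.8 CPM in 4LPS and did not pass (log2 fold change 0.14, SE 0.080, adjusted p = 0.265).

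Phosphofructokinase 1 commits the sugar to glycolysis and is assembled from liver, muscle and platelet type subunits. The liver type gene Pfkl, at chr10:77818084-77845922, measured 118, 124 and 112 CPM in NS and 156, 161 and 169 CPM in 4LPS. All 4LPS values stood above all NS values, and Pfkl rose 1.38-fold (log2 fold change 0.46, SE 0.056, adjusted p = 0.00155 in edgeR). The muscle type gene Pfkm measured 23.98, 23.6 and 15.7 CPM in NS and 14.2, 12.2 and 14.1 CPM in 4LPS, at a much lower level. Pfkm fell (log2 fold change −0.64, SE 0.17, adjusted p = 0.0398), but NS replicate 3 lay close to the 4LPS samples, and the call was lost without NS replicate 1 (0.136), without NS replicate 2 (0.115), without 4LPS replicate 1 (0.08497), without 4LPS replicate 2 (0.133) or without 4LPS replicate 3 (0.104), and with the Ttr level as a covariate (0.172). Without NS replicate 3 the adjusted p of Pfkm was 0.00221. The platelet type gene Pfkp measured 28.1, 23.8 and 12.5 CPM in NS and 16.8, 8.09 and 14.9 CPM in 4LPS, with overlapping groups, and did not pass (log2 fold change −0.69, SE 0.34, adjusted p = 0.194, 95% interval −1.48 to 0.097). It passed without NS replicate 3 (0.0362). Within each group the samples stood in the same order for Pfkp as for the choroid plexus markers, lowest in NS replicate 3 and in 4LPS replicate 2. With the Ttr level as a covariate its log2 fold change was −0.15 (adjusted p = 0.733 in edgeR).

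Gpi1, the isomerase that converts glucose 6-phosphate to fructose 6-phosphate, measured 172, 175 and 160 CPM in NS and 224, 205 and 242 CPM in 4LPS. The groups did not overlap, and Gpi1 rose (log2 fold change 0.40, SE 0.068, adjusted p = 0.007496 in edgeR). Tpi1, which interconverts the triose phosphates, measured 106, 98.1 and 83.8 CPM in NS and 128, 123 and 130.2 CPM in 4LPS, again without overlap. Tpi1 rose by a like amount (log2 fold change 0.40, SE 0.085, adjusted p = 0.0177), and the call was lost without 4LPS replicate 1 (0.0555) or without 4LPS replicate 3 (0.0701). Aldoa, the main aldolase of most tissues, had the highest FPKM of the upper pathway, with 285 ± 36.1 FPKM in NS and 308 ± 18.1 FPKM in 4LPS (mean ± SD, n = 3), and measured 374, 348 and 294 CPM in NS and 396, 368 and 411 CPM in 4LPS. The lowest 4LPS value lay below the highest NS value, and Aldoa did not pass (log2 fold change 0.21, SE 0.089, adjusted p = 0.145).

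Lower glycolysis runs from glyceraldehyde 3-phosphate to pyruvate, and 2 of its 6 genes (33.3%, against 9.95% of all genes) were called higher and none lower. Pkm, the pyruvate kinase of brain and white blood cells, lies at chr9:59563364-59586663 and measured 384, 398 and 350.3 CPM in NS and 482, 454 and 509.8 CPM in 4LPS. All 4LPS samples lay above NS, and Pkm rose 1.28-fold (log2 fold change 0.35, SE 0.066, adjusted p = 0.0108 in edgeR). The counts are per gene, so the M1 and M2 splice forms of Pkm were not told apart. Pgam1, the phosphoglycerate mutase, measured 144, 125 and 121 CPM in NS and 156, 162 and 159.6 CPM in 4LPS. Pgam1 rose with no overlap between groups (log2 fold change 0.30, SE 0.069, adjusted p = 0.0259), and the call was lost without NS replicate 2 (0.0768), without 4LPS replicate 1 (0.0571), without 4LPS replicate 2 (0.0807) or without 4LPS replicate 3 (0.0747). Gapdh, the dehydrogenase often used as a reference gene, had the highest FPKM of the whole list, with 717 ± 67.96 FPKM in NS and 729 ± 30.2 FPKM in 4LPS (mean ± SD, n = 3). It measured 836, 830.5 and 707 CPM in NS and 861, 824 and 888 CPM in 4LPS and did not pass (log2 fold change 0.12, SE 0.076, adjusted p = 0.316, 95% interval −0.060 to 0.29). Pgk1, which forms the first ATP of the pathway, measured 141, 127 and 99.9 CPM in NS and 137, 129.8 and 141 CPM in 4LPS and did not pass (log2 fold change 0.15, adjusted p = 0.388 in edgeR). Eno1, the enolase, did not pass either, with a log2 fold change of 0.067 that turned to −0.032 without the composition factor and to −0.025 without NS replicate 3. NS replicate 3 was the lowest sample for Gapdh, Pgk1 and Eno1. Bpgm, which makes 2,3-bisphosphoglycerate and is best known from red blood cells, measured 13.2, 14.1 and 14.6 CPM in NS and 10.99, 11.8 and 11.6 CPM in 4LPS. All 4LPS values lay below NS, but Bpgm did not pass (log2 fold change −0.28, SE 0.095, adjusted p = 0.0813). Without the composition factor its adjusted p was 0.0283. Red blood cell markers ranged from 2.203 to 26.1 CPM in NS and from 7.69 to 41.6 CPM in 4LPS with no call.

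Pyruvate is either reduced to lactate and exported or oxidised in mitochondria, and 2 of the 7 genes at this branch (28.6%, against 9.95% of all genes) were called higher and none lower. Ldha, the lactate dehydrogenase subunit that favours lactate formation, lies at chr7:46490899-46505061 and measured 139, 141 and 135 CPM in NS and 163, 157 and 166 CPM in 4LPS. The groups did not overlap, and Ldha rose 1.17-fold (log2 fold change 0.23, SE 0.045, adjusted p = 0.01297 in edgeR), although the call was lost without 4LPS replicate 1 (0.0525) or without 4LPS replicate 3 (0.0545). Slc16a3, which encodes the lactate exporter MCT4, measured 49.5, 45.8 and 40.7 CPM in NS and 54.98, 56.4 and 56.96 CPM in 4LPS. It rose (log2 fold change 0.31, SE 0.078, adjusted p = 0.0339) with a call that was lost without NS replicate 2 (0.0757), without 4LPS replicate 1 (0.0762), without 4LPS replicate 2 (0.0956) or without 4LPS replicate 3 (0.0995). Ldhb, the subunit that favours lactate oxidation, had the highest FPKM of this group, with 372 ± 48.7 FPKM in NS and 360.2 ± 8.43 FPKM in 4LPS (mean ± SD, n = 3), and measured 394, 394 and 312 CPM in NS and 375, 373 and 387 CPM in 4LPS. Ldhb did not pass (log2 fold change 0.046, SE 0.090, adjusted p = 0.754, 95% interval −0.16 to 0.25), and its log2 fold change was −0.053 without the composition factor and −0.056 without NS replicate 3.

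The pyruvate dehydrogenase complex feeds acetyl-CoA into the citric acid cycle, and its kinases switch it off. The kinase genes Pdk1 and Pdk3 had log2 fold changes of 0.078 (95% interval −0.057 to 0.21) and −0.027 (95% interval −0.25 to 0.20). The signs of both turned under some settings: that of Pdk1 was −0.019 without the composition factor, and that of Pdk3 0.030 without 4LPS replicate 1. The genes of the E1 subunits of the complex, Pdha1 and Pdhb, had log2 fold changes of −0.10 (95% interval −0.25 to 0.048) and −0.088 (95% interval −0.24 to 0.067). None of these 4 genes passed in edgeR, with adjusted p of 0.299 to 0.8699.

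In the pentose phosphate pathway, 1 of 7 genes was called higher and none lower, which at 14.3% is near the share of all genes called (16.4% in either direction and 9.95% higher). All 7 log2 fold changes lay above 0, although that of G6pdx lay below 0 without the composition factor. Pgd, the 6-phosphogluconate dehydrogenase that forms the second NADPH of the oxidative branch, lies at chr4:149233246-149251228 and measured 154, 169 and 174 CPM in NS and 209.7, 206 and 211 CPM in 4LPS. The 3 4LPS samples differed little from each other and stood above all NS samples, and Pgd rose 1.26-fold (log2 fold change 0.33, SE 0.054, adjusted p = 0.00557 in edgeR). G6pdx, the glucose 6-phosphate dehydrogenase that opens the pathway, measured 63.5, 69.98 and 72.5 CPM in NS and 68.1, 69.1 and 72.8 CPM in 4LPS. Its groups overlapped fully and it did not pass (log2 fold change 0.028, SE 0.065, adjusted p = 0.798, 95% interval −0.12 to 0.18), and its log2 fold change was −0.070 without the composition factor and −0.025 without NS replicate 1. Pgls, the lactonase between the dehydrogenases, measured 29.01, 26.8 and 25.04 CPM in NS and 35.95, 28.2 and 33.02 CPM in 4LPS and did not pass (log2 fold change 0.27, adjusted p = 0.124). With the Ttr level as a covariate the adjusted p of Pgls was 0.0255 in edgeR.

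The genes of the non-oxidative branch, which interconverts sugar phosphates, did not pass. Taldo1, the transaldolase, had the highest FPKM of the pathway, with 120.5 ± 3.53 FPKM in NS and 123 ± 10.3 FPKM in 4LPS (mean ± SD, n = 3), and measured 118, 113 and 116 CPM in NS and 124, 118 and 137 CPM in 4LPS (log2 fold change 0.12, adjusted p = 0.209 in edgeR). Tkt, the transketolase, had a log2 fold change of 0.12 (95% interval −0.031 to 0.28) and Rpia, the ribose 5-phosphate isomerase, one of 0.19 (95% interval −0.12 to 0.49). Tigar, a phosphatase that lowers fructose 2,6-bisphosphate and so favours the pentose branch, was the least abundant gene of the list. It measured 7.74, 7.29 and 6.198 CPM in NS and 9.04, 7.61 and 8.27 CPM in 4LPS, with overlapping groups (log2 fold change 0.23, adjusted p = 0.286).

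Since paralogs of the hexokinases and of phosphofructokinase 1 moved in opposite directions, each one's share of the summed FPKM of its family was computed per sample. The same was done for PFKFB and lactate dehydrogenase, whose genes on the list all had log2 fold changes above 0. The share of Hk2 among the 3 hexokinases was 46.4% ± 1.505 in NS and 52.3% ± 1.63 in 4LPS (mean ± SD, n = 3), that of Hk1 was 13.4% ± 1.26 in NS and 7.91% ± 0.492 in 4LPS, and that of Hk3 was 40.3% ± 1.14 in NS and 39.8% ± 1.14 in 4LPS. The share of Hk2 was larger and that of Hk1 smaller in every 4LPS sample, while that of Hk3 overlapped between groups. The share of Pfkl among the phosphofructokinase 1 genes was 71.3% ± 5.39 in NS and 84.2% ± 2.69 in 4LPS, that of Pfkm was 16.9% ± 1.999 in NS and 9.42% ± 0.605 in 4LPS, and that of Pfkp was 11.8% ± 3.43 in NS and 6.37% ± 2.097 in 4LPS. Among the PFKFB genes, the share of Pfkfb3 was 56.4% ± 0.261 in NS and 63.2% ± 0.595 in 4LPS, while that of Pfkfb4 was 33.5% ± 0.622 in NS and 28.1% ± 1.11 in 4LPS. The share of Pfkfb4 fell although the gene itself was called higher. The share of Ldha in lactate dehydrogenase was 22.4% ± 1.95 in NS and 24.5% ± 0.284 in 4LPS, and NS replicate 3, at 24.6%, lay among the 4LPS samples. By an exact permutation test over samples the shares of Hk1, Hk2, Pfkl, Pfkm, Pfkfb2, Pfkfb3 and Pfkfb4 had p = 0.1, the smallest two-sided value that 3 against 3 samples allow, and Pfkp had 0.2, Ldha 0.3 and Hk3 0.5. These values were not adjusted. For Hk1 the value was fixed beforehand, since Hk1 lay below NS and Hk2 and Hk3 above NS in every 4LPS sample. The shares restate the values of the single genes in the same samples and add no separate support. The summed FPKM of a family in 4LPS over that in NS was 1.07 for the hexokinases, 1.084 for phosphofructokinase 1, 1.28 for PFKFB and 0.998 for lactate dehydrogenase, so the summed level differed most for PFKFB. These sums carry no TMM factor and are not on the scale of the edgeR fold changes. Without that factor the median log2 fold change of the list was 0.077 in place of 0.17.

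**Figure D3:**
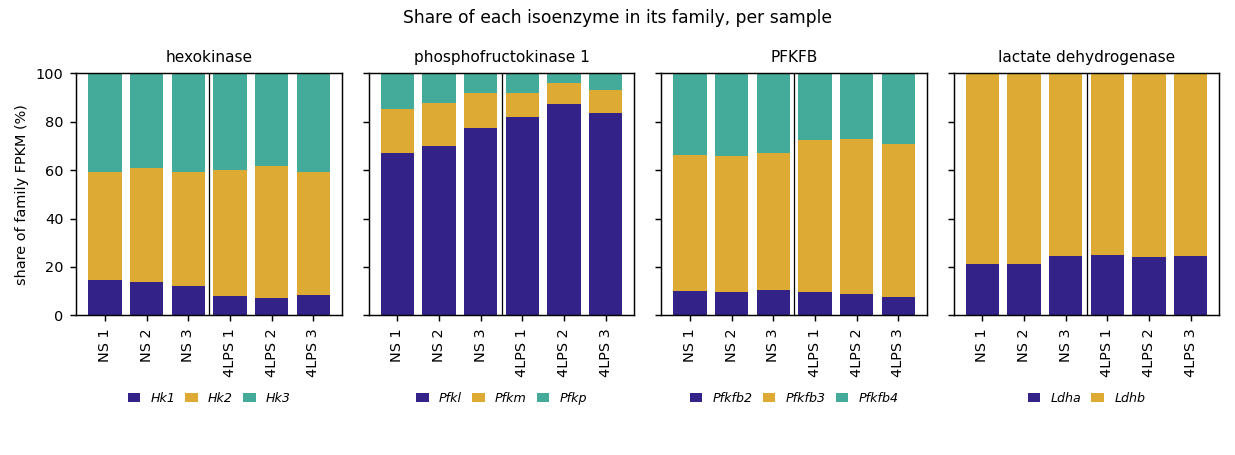
Share of each paralog in the summed FPKM of its family, in percent, for each of the 6 samples, with NS left and 4LPS right of the line. The share of Hk1 is smaller in every 4LPS sample than in any NS sample and the shares of Hk2, Pfkl and Pfkfb3 are larger, while the Ldha share of NS replicate 3 is like that of 4LPS.

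Ratios within a sample do not depend on the scaling between libraries. The FPKM ratio of Hk2 to Hk1 was 3.08, 3.48 and 3.92 in NS and 6.36, 7.38 and 6.195 in 4LPS, and every 4LPS value lay above every NS value. The ratio of Pfkl to Pfkm was 3.66, 3.92 and 5.29 in NS and 8.15, 9.87 and 8.91 in 4LPS, again without overlap. That of Pgd to G6pdx, the dehydrogenases of the same branch, was 2.59, 2.57 and 2.55 in NS and 3.28, 3.17 and 3.09 in 4LPS. Within NS this last ratio was nearly constant, and it was higher in each 4LPS sample. The ratio of Ldha to Ldhb was 0.268, 0.272 and 0.327 in NS and 0.3299, 0.3199 and 0.325 in 4LPS, and NS replicate 3 lay within the range of 4LPS. Of the 6 ratios computed, 5 had an exact permutation p = 0.1 (0.12 after adjustment over the 6), the smallest this design allows, and the ratio of Ldha to Ldhb had 0.3. For Hk2 to Hk1 and Pfkl to Pfkm that p was fixed beforehand. In each of these pairs the first gene lay above NS and the second below NS in every 4LPS sample. The ratios restate the values of the single genes and add no separate support.

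The spread within groups differed between genes and samples. The median coefficient of variation over the 33 genes was 7.06% in NS and 4.999% in 4LPS, and Pfkp had the largest in both groups, 37.7% and 34.5%. NS replicate 3 was the lowest NS sample for 22 of the 33 genes, and 4LPS replicate 2 was the lowest 4LPS sample for 21. These are the NS sample and the 4LPS sample with the least choroid plexus marker RNA in their groups, and the part of that RNA in the spread was not tested. With the Ttr level as a covariate, 9 genes were called higher and 1 lower. The 33 genes took 0.528%, 0.515% and 0.463% of all counts in NS and 0.549%, 0.528% and 0.545% in 4LPS.

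**Figure D4:**
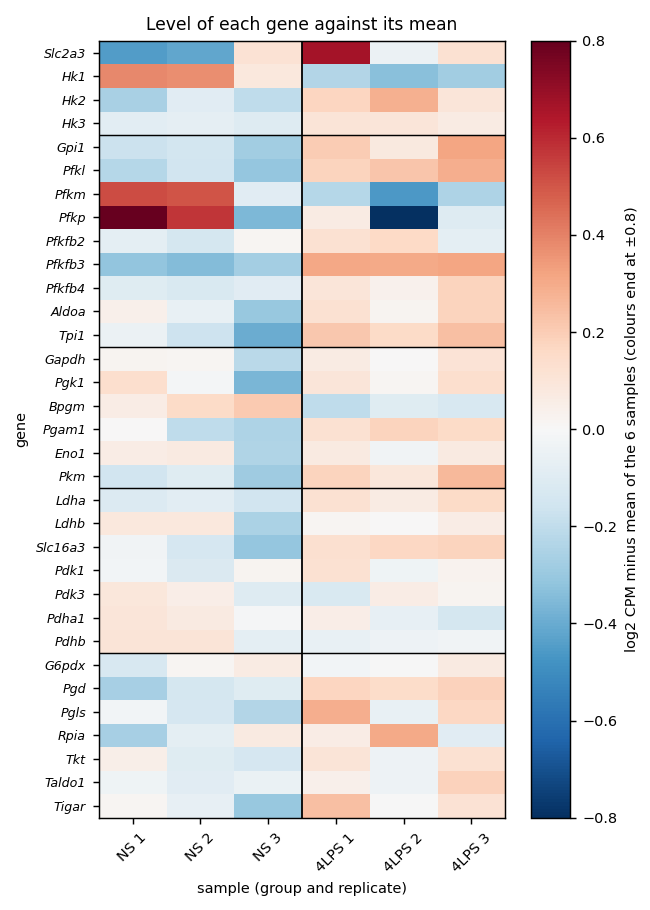
Log2 CPM of each gene in each sample minus the mean of that gene over the 6 samples, with red above and blue below the mean and NS left of the line. NS replicate 3 is the lowest NS sample for 22 of the 33 genes, Hk1, Pfkm and Pfkp run against most other genes in NS replicates 1 and 2, and Pfkfb3 is even within each group.

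Of 62 other genes of glucose and lactate transport, glycolysis, gluconeogenesis, pyruvate entry and the pentose phosphate pathway, 54 were in the table and 44 were tested, with 3 called higher and 5 lower. These are 18.2% of the genes tested, near the 16.4% called among all genes, with 6.82% higher against 9.95% and 11.4% lower against 6.43%. Slc2a5, the fructose transporter of microglia, measured 618, 673 and 646 CPM in NS and 396, 412 and 391 CPM in 4LPS and fell (log2 fold change −0.69, SE 0.052, adjusted p = 1.51e-04 in edgeR). The FPKM ratio of Slc2a5 to Slc2a3 was 75.4, 80.3 and 53.4 in NS and 22.4, 38.1 and 32.2 in 4LPS, with no overlap between groups. Slc2a6, a sugar transporter of lysosomes in macrophages, rose from a low level (1.26, 1.89 and 2.48 CPM in NS and 4.99, 5.17 and 7.66 CPM in 4LPS, log2 fold change 1.66, SE 0.30, adjusted p = 0.00929). Aldoc, the aldolase of brain and best known from astrocytes, fell (14.6, 19.2 and 14.8 CPM in NS and 8.23, 8.97 and 7.39 CPM in 4LPS, log2 fold change −0.98, SE 0.14, adjusted p = 0.00383), and the part of astrocytes, whose markers were also lower in 4LPS, in the value of Aldoc was not tested. Slc2a5, Slc2a6 and Aldoc passed in all 20 alternatives. H6pd, the glucose 6-phosphate dehydrogenase of the endoplasmic reticulum, rose (log2 fold change 0.29, adjusted p = 0.01297), with the call lost without 4LPS replicate 3 (0.0567), and so did the inositol phosphatase Minpp1 (log2 fold change 0.20, adjusted p = 0.0375), with its call lost without NS replicate 1 (0.0803), without NS replicate 2 (0.0935), without NS replicate 3 (0.0527), without 4LPS replicate 1 (0.0854), without 4LPS replicate 2 (0.0996) or without 4LPS replicate 3 (0.0739). Bsg, the chaperone of the lactate transporters, fell (log2 fold change −0.42, adjusted p = 0.0491), with the call lost without NS replicate 1 (0.131), without NS replicate 2 (0.0939), without 4LPS replicate 1 (0.132), without 4LPS replicate 2 (0.1596) or without 4LPS replicate 3 (0.0519). Bsg is also abundant in brain endothelium, whose markers had a lower mean sum in 4LPS with overlapping groups and 2 of 7 called lower. The part of these cells in the value of Bsg was not tested. Mpc1, a subunit of the mitochondrial pyruvate carrier, fell (log2 fold change −0.26, adjusted p = 0.02897), with the call lost without NS replicate 1 (0.102), without NS replicate 2 (0.0520), without 4LPS replicate 1 (0.0992) or without 4LPS replicate 2 (0.102). Prps2, which makes phosphoribosyl pyrophosphate from ribose 5-phosphate, fell (log2 fold change −0.22, adjusted p = 0.0317), with the call lost without NS replicate 1 (0.103), without 4LPS replicate 1 (0.0570), without 4LPS replicate 2 (0.108) or without 4LPS replicate 3 (0.112). Over this list the lower calls numbered 2 when NS replicate 1 was left out, and also without replicate 1 or 2 of 4LPS, 3 without 4LPS replicate 3 and 9 without NS replicate 3, and 1 gene was called higher without 4LPS replicate 3.

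Among 23 regulators of glycolysis tested, 2 were called higher and 4 lower, in all 26.1% against 16.4% of all genes (8.70% against 9.95% in the higher direction and 17.4% against 6.43% in the lower). Hif1a, the oxygen-regulated subunit of the factor that drives many glycolytic genes, measured 183, 158 and 189 CPM in NS and 209, 229 and 244 CPM in 4LPS and rose (log2 fold change 0.36, SE 0.082, adjusted p = 0.0221 in edgeR), with the call lost without NS replicate 1 (0.0561), without 4LPS replicate 2 (0.0558) or without 4LPS replicate 3 (0.0597). Of the glucose-sensing factors, Mlxip rose (log2 fold change 0.23, adjusted p = 0.0412) and Mlxipl fell (log2 fold change −0.24, adjusted p = 0.0122). The call of Mlxip was lost without NS replicate 1 (0.122), without NS replicate 3 (0.0559), without 4LPS replicate 1 (0.119), without 4LPS replicate 2 (0.0973) or without 4LPS replicate 3 (0.0746), and that of Mlxipl without 4LPS replicate 2 (0.0682) or without 4LPS replicate 3 (0.0629). Prkab1, the β1 subunit of the energy sensor AMPK, measured 152, 137 and 144 CPM in NS and 108, 96.5 and 96.6 CPM in 4LPS and fell (log2 fold change −0.53, SE 0.063, adjusted p = 0.00147), a call that passed in all 20 alternatives. The catalytic subunit gene Prkaa2 fell from a low level (7.43, 5.53 and 2.98 CPM in NS and 2.56, 1.36 and 1.63 CPM in 4LPS, log2 fold change −1.52, adjusted p = 0.0347), with the call lost without NS replicate 1 (0.116), without NS replicate 2 (0.0852), without 4LPS replicate 2 (0.113) or without 4LPS replicate 3 (0.115). The γ1 subunit gene Prkag1 fell (log2 fold change −0.26, adjusted p = 0.0327), with the call lost without NS replicate 1 (0.0541), without NS replicate 2 (0.0865), without 4LPS replicate 1 (0.0845), without 4LPS replicate 2 (0.101) or without 4LPS replicate 3 (0.126).

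Of 22 citric acid cycle genes tested, 2 were called higher and 1 lower, 13.6% of the list and no more than the 16.4% called among all genes. The cytosolic malate dehydrogenase gene Mdh1 fell (171, 154 and 119 CPM in NS and 117, 97.8 and 105 CPM in 4LPS, log2 fold change −0.47, adjusted p = 0.0441 in edgeR), with the call lost without NS replicate 1 (0.132), without NS replicate 2 (0.112), without 4LPS replicate 1 (0.0625), without 4LPS replicate 2 (0.151) or without 4LPS replicate 3 (0.138). Aco1, the cytosolic aconitase, rose (log2 fold change 0.21, adjusted p = 0.0487), but passed in only 1 of the 20 alternatives, and was lost without NS replicate 1 (0.137), without NS replicate 2 (0.102), without NS replicate 3 (0.0614), without 4LPS replicate 1 (0.132), without 4LPS replicate 2 (0.0706) or without 4LPS replicate 3 (0.0874). Acod1, which makes itaconate from a cycle intermediate in activated macrophages, rose at a very low level (0.126, 0.314 and 0.372 CPM in NS and 0.877, 0.816 and 2.03 CPM in 4LPS, log2 fold change 2.16, adjusted p = 0.0386), with the call lost without NS replicate 1 (0.123), without NS replicate 2 (0.0873), without 4LPS replicate 1 (0.0544), without 4LPS replicate 2 (0.0538) or without 4LPS replicate 3 (0.119).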

How the data were processed

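RNA-seq was performed on cortical CD11b+ cells of 3 NS and 3 4LPS samples at D7, each a separate pool of 2 mice, grouped by the sample labels. The authors filtered paired reads, mapped them to mm39 according to the methods (the submitters' notes also list mm10), and quantified genes, using HISAT2 2.0.4, Bowtie2 2.2.5 and RSEM 1.2.8. The authors deposited expected counts, which are estimated counts and not normalized, with FPKM, TPM and a normalized signal in the same table. The normalized signal deposited by the authors and their group means were not used, and the deposited TPM served only to recompute family shares. RSEM splits a read between the genes it matches, and of the 33 genes only 1 had a count that was not whole.

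Expected counts were rounded and tested in R 4.3.3 with edgeR 4.0.16 (TMM factors, filterByExpr, quasi-likelihood F-test, Benjamini-Hochberg over the 13151 genes tested, threshold 0.05). The script was tested on simulated data. SE was obtained by dividing the log2 fold change by the root of F. Family shares and ratios used the deposited FPKM and an exact permutation test. Coordinates are from GENCODE in GRCm39, and promoter windows from RefSeq in GRCm38.p6, both matched by symbol. The members, gene lists, markers and alternatives were chosen with earlier results of these data known. Values per sample are given for each called gene of the list, the 8 with the smallest adjusted p and the gene of highest FPKM per role. Of the other lists, up to 8 genes that passed are named, and only some of these with values per sample. Further genes were added after their values were seen. Alternatives were RLE, upper-quartile or no composition factors, no filter, a filter of 50 counts in 3 samples, limma 3.58.1 with voom, DESeq2 1.42.0, limma on log2(FPKM + 1) after a filter of 1 FPKM in 3 samples, the same with a pseudocount of 0.1 or unfiltered, a replicate block, a length correction with and without the block, the Ttr level as covariate, and leaving out each sample.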

Additional observations from a re-analysis of the deposited data

How the results depend on the processing

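The count of the 33 genes called higher (12) was 6 without the composition factor, 7, 6 and 5 with limma on log2(FPKM + 1), on log2(FPKM + 0.1) and on log2(FPKM + 1) without a filter, and 6 to 13 when each sample was left out. The count called lower (2) was 1 with limma-voom and 1 with the Ttr level as covariate, and 1 to 3 with a sample left out. The median log2 fold change of the list (0.17) was 0.0765 without the composition factor and 0.0829, 0.0889 and 0.0829 in the 3 FPKM fits. Other pathway genes called higher (3) numbered 1 without the composition factor and 1 in each of the 3 FPKM fits, and 1 to 3 with a sample left out. Those called lower (5) numbered 8 without the composition factor, 8 with the length correction and replicate block together, 2 with the Ttr level, and 2 to 9 with a sample left out. The 9 calls among regulators and citric acid cycle genes numbered 5 with limma-voom, 5 with FPKM without a filter, 1 with the Ttr level, and 1 to 10 with a sample left out. Shares of Hk2, Pfkl and Pfkfb3 from TPM, or with a sample left out, kept their direction, but this was fixed beforehand. TPM rescales all FPKM of a sample by a common factor, which leaves shares within a sample unchanged. The groups did not overlap for these shares, so leaving out a sample could not turn the direction.

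Signs turned for 5 genes that did not pass. Eno1 was −0.032 without the composition factor and −0.020, −0.020, −0.020 in the 3 FPKM fits, and ran from −0.025 to 0.12 with a sample left out. Ldhb was −0.053 without the composition factor and −0.037, −0.037, −0.037 in the 3 FPKM fits, and ran from −0.056 to 0.10 with a sample left out. Pdk1 was −0.019 without the composition factor and −0.018, −0.018, −0.018 in the 3 FPKM fits. G6pdx was −0.070 without the composition factor and −0.063, −0.065, −0.063 in the 3 FPKM fits, and ran from −0.025 to 0.072 with a sample left out. G6pdx was −0.0012 with upper-quartile factors. Pdk3 ran from −0.081 to 0.030 with a sample left out, and turned without NS replicate 1 (0.012) and 4LPS replicate 1. The cause was not tested.

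Deviations from the group means of same-numbered samples correlated at 0.473, −0.262 and 0.0663 across genes, and those of samples with unlike numbers at −0.542 to 0.468. Deviations within a group are not independent of each other, so these values cannot decide whether same-numbered samples were paired. With the replicate block, 10 of the 33 genes were called higher and 2 lower, and Hk3 (adjusted p = 0.0516 in edgeR) and Pfkfb4 (0.0598) no longer passed. With 3 samples per group, exact permutation tests could not go below 0.1, and the least abundant gene, Tigar, rested on 707 counts over the 6 samples.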
